A study of Mus musculus with 11 samples.

Results

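The genes described here encode the subunits of voltage-gated sodium and calcium channels. They were chosen as the rows of the deposited expression table whose symbol names a sodium channel alpha or beta subunit (Scn genes) or a calcium channel alpha1, alpha2delta, beta or gamma subunit (Cacna, Cacnb and Cacng genes). This gave 39 of 24138 loci, and 29 of the 39 reached a mean of 1 FPKM over the libraries and were tested. FPKM divides fragment numbers by the length of the transcript and the size of the library, so levels can be compared between genes. RNA came from the cortex of mouse embryos at E14.5. The Chd8 conditional knockout (cKO) group held 2 libraries, with genotype Chd8 c/c, Emx1-cre. The control group held 3 libraries whose labels name no Cre, with genotype Chd8 c/+ in control 1 and Chd8 c/c in controls 2 and 3. Emx1-cre acts in dorsal telencephalic progenitors and their progeny, so interneurons, microglia and vessels in the same tissue are outside the deleted lineage. The labels do not say whether a library is a single embryo or a pool, so p-values measure the spread between these libraries. One protocol field of the expression samples names Eed in place of Chd8. Chd8 RNA was 19.3 and 15.1 FPKM in the cKO libraries, against 31.5, 30.02 and 31.8 FPKM in the control libraries, and both cKO libraries lay below every control (log2 change -0.83, SE 0.15, limma adjusted p = 0.575; exact two-sided permutation p = 0.1, the smallest that 10 splits allow). The authors' deposited table gave Chd8 a log2 fold change of -0.86 with a q-value of 0.0033.

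Sodium channels open on depolarisation and carry the upstroke of the action potential. Their alpha subunit forms the pore, and beta subunits alter gating and adhesion. Calcium channels turn depolarisation into calcium entry: the alpha1 subunit forms the pore, and alpha2delta and beta subunits set how many channels reach the membrane. Most gamma subunits are better known as TARPs, which escort AMPA-type glutamate receptors to synapses. In the embryonic cortex these channels support the calcium transients of migrating and newly born neurons, and Scn3a is the alpha subunit known for high expression before birth.

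The table joins Cacng8 with Gm23450, a miRNA gene inside it, and the value of that locus belongs to both.

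Of the 39 members, 29 had a promoter window, the 250 bases before a RefSeq start of GRCm38.p6, with 39 windows in all. The E-box CAGCTG, which reads the same on both strands, was present in 28.2% of the members' windows and in 13.0% of all 32851 RefSeq windows. Those windows were not limited to genes expressed here. The GC box GGGCGG, on either strand, was present in 38.5% of the members' windows and 32.7% of all windows. The motif TATAAA, on either strand, was present in 2.56% of the members' windows, in 1 window of Cacna1d, and in 12.4% of all windows. Whether matches of different motifs shared bases was not checked, and a match is a stretch of letters only.

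No channel gene differed between cKO and control past the threshold. At an adjusted p under 0.05 in limma, with Benjamini-Hochberg adjustment over all 12672 tested loci, 0 of 29 members were called higher and 0 lower, where 0.0158% and 0.0316% of all tested loci were called. The lowest adjusted p of a member was 0.575. This limma fit did not call Chd8 itself either (adjusted p = 0.575). At an unadjusted p under 0.05, 1 member was higher and 0 were lower, where all loci gave 3.08% and 4.37%. The authors' deposited table tested 30 members and called 0, where 1.21% of tested loci were called higher and 3.0% lower. The lowest q of a member was 0.128. There 5 members had a p under 0.05, and the share of all loci at that p was not taken. Of the 29 members, 18 had a positive log2 change and 11 a negative one, where 46.9% of all loci were positive and 53.1% negative, and the median was 0.06 (all loci -0.02). A positive log2 change means a higher level in cKO; 1 was added to each FPKM before the logarithm, and changes of low genes are therefore understated.

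Both cKO libraries lay above every control for 2 members, Cacng4 and the Cacng8 locus (13.4% of all loci), and below every control for 2, Cacna1g and Cacnb3 (15.6% of all loci). Both shares of the members are below the background. The separation depended on scaling: with each library centred on the pan-neuronal deviation, 2 members lay above, the Cacng8 locus among them and Cacng4 not (4.71% of all loci), and Cacna1g, Cacnb1, Cacnb3 and Scn2b below (5.56%), and with each library centred on the median level of the same genes the Cacng8 locus lay above (1.55%) and 0 members below (0.797%). Both centrings were chosen after seeing the data. The intervals of the differences were wide. For Cacna1h, the member with the narrowest one, the 95% interval of the log2 change was -0.42 to 0.29, and for Cacng2, the widest, it was -1.48 to 1.57.

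**Figure D1:**
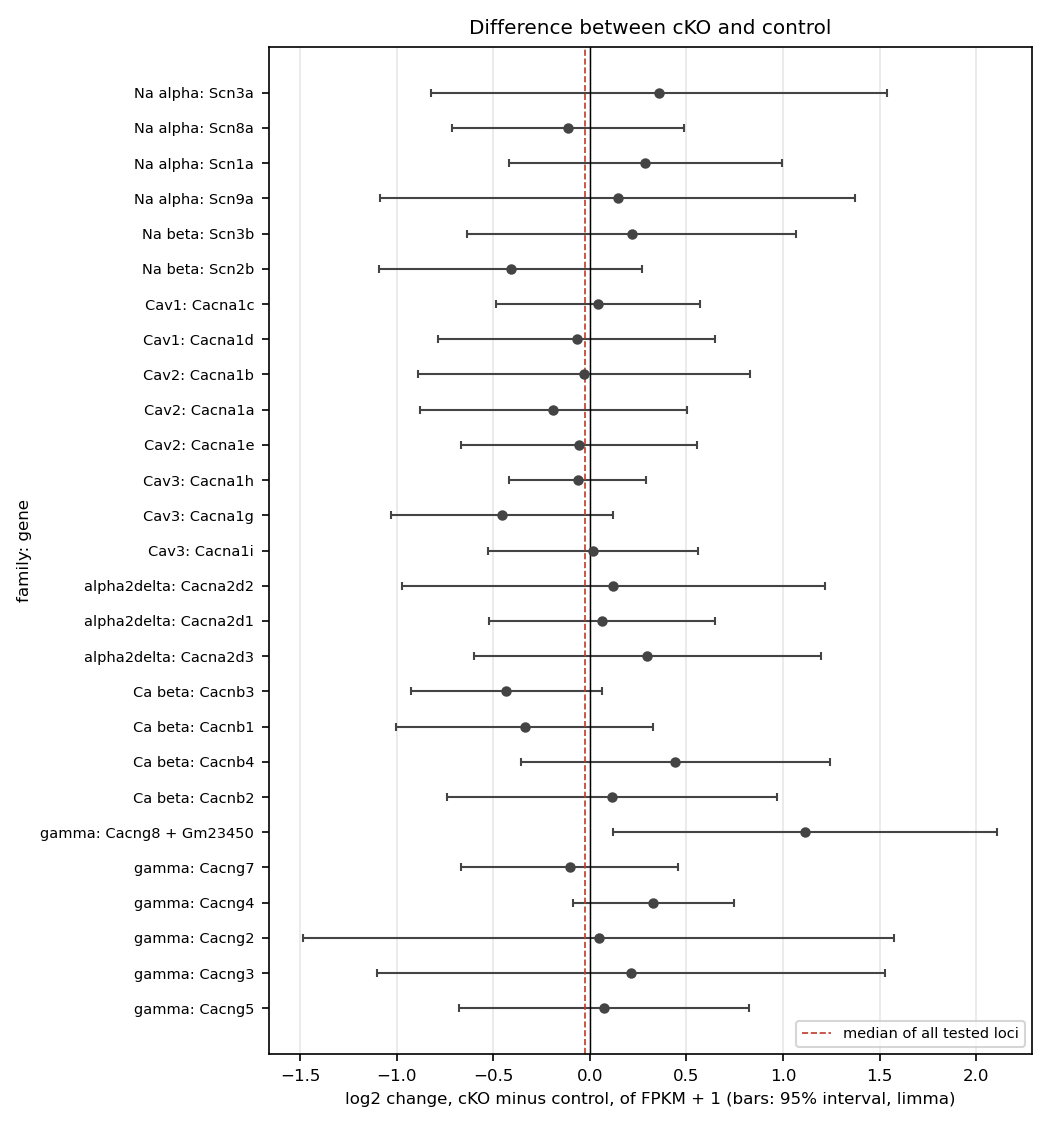
Log2 change (cKO minus control, log2 of FPKM + 1) of 27 of the 29 tested channel genes on the horizontal axis, ordered by family; bars are 95% intervals from the limma fit and the dashed line is the median of all tested loci (-0.02). The interval of the Cacng8 locus, 0.12 to 2.11, is the single one that does not reach 0, and its adjusted p was 0.575.

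The channel genes varied among the controls, and the cKO libraries also differed from each other. Control 1 was the highest and control 2 the lowest of the 5 libraries for 14 of the 29 members (48.3%), where 11.9% of all tested loci had that order, a pattern chosen after the values were seen. Control 1 exceeded control 2 in 25 of 29 members, against 48.5% of all loci. The range among the 3 controls was wider than the group difference in 26 of 29 members (74.6% of all loci), with Cacnb3 and the Cacng8 locus among the exceptions. The median SD over the controls was 0.35 log2 units for the members and 0.19 for all tested loci. Measured against its own mean over the libraries, the median member deviated by 0.17 and -0.15 log2 units in cKO 1 and cKO 2, and by 0.40, -0.28 and -0.06 in controls 1 to 3.

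Pan-neuronal genes had a median that was also highest in control 1 and lowest in control 2. Control 1 was the highest and control 2 the lowest library for 6 of the 20 genes, and the difference from the channel genes (14 of 29) was not tested. Rbfox3 was highest in control 2, and Tubb3 differed little among the controls (1343, 1324 and 1373 FPKM). The median deviation of 20 pan-neuronal genes was 0.23 and -0.23 log2 units in the cKO libraries, and 0.34, -0.33 and 0.003 in the controls. Their summed level was 5045 and 3652 FPKM in the cKO libraries, against 5384, 3880 and 4453 FPKM in the controls. Genes of intermediate progenitors ran the other way among the controls: the summed level of 10 such genes was 350 and 306 FPKM in the cKO libraries, against 373, 836 and 554 FPKM in the controls. In whole cortex, fewer cells of a type and less RNA per cell cannot be told apart, and the part of these markers in the channel values was not tested. With each library centred on the pan-neuronal deviation, the members' median SD over the controls was 0.24 and that of all loci 0.38. Under that centring, limma called 0 members. It gave 1 higher and 0 lower at an unadjusted p under 0.05, and the share of all loci at that p was not taken.

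**Figure D2:**
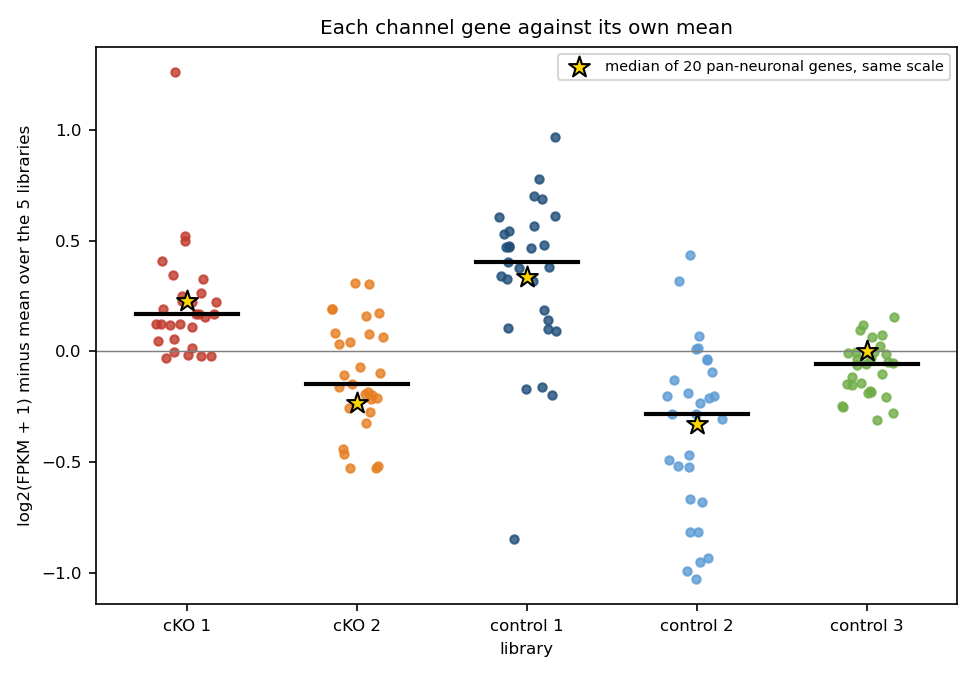
Each point is 1 of the 29 tested channel genes, plotted as log2(FPKM + 1) minus its own mean over the 5 libraries; black lines are medians over the genes and stars are the median deviation of 20 pan-neuronal genes on the same scale. Control 1 has the highest median (0.40) and control 2 the lowest (-0.28), and the cKO libraries lie between them at 0.17 and -0.15.

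Among the sodium channel pores, Scn3a, the embryonic neuronal subunit, was the most abundant. Scn3a was 12.04 and 13.8 FPKM in the cKO libraries, against 18.4, 5.19 and 9.57 FPKM in the controls. The groups overlapped, and both cKO libraries lay between control 1 and control 3 (log2 change 0.36, SE 0.47, adjusted p = 0.777). Scn8a, which clusters at axon initial segments and nodes later in life, was 6.11 and 4.48 FPKM in the cKO libraries, against 7.66, 4.65 and 5.31 FPKM in the controls, and the groups overlapped. Scn1a, the subunit mutated in Dravet syndrome, was 2.33 and 2.42 FPKM in the cKO libraries, against 2.76, 1.13 and 1.64 FPKM in the controls. Its cKO libraries differed by less than its controls did and lay inside their range.

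Scn9a, known for its role in pain-sensing neurons, was 1.22 and 1.45 FPKM in the cKO libraries, against 2.54, 0.150 and 1.31 FPKM in the controls. Its highest control was 16.9 times its lowest, the widest such ratio among the 29 tested members. Scn2a, the other main pore of young cortical neurons, stands in the table under its older symbol Scn2a1, which the rule did not match. Scn2a1 was 6.21 and 4.33 FPKM in the cKO libraries, against 8.41, 1.70 and 3.56 FPKM in the controls, with control 1 highest and control 2 lowest as in Scn3a.

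The pores that did not reach the filter were near 0. Scn11a and Scn10a, subunits of peripheral sensory neurons, were at most 0.283 and 0.191 FPKM in any library, and Scn7a, an atypical sodium-sensing relative, at most 0.0626. Scn4a, the skeletal muscle pore, was listed at 0 in 4 libraries and at 0.0105 FPKM in control 2. Scn10a was higher in both cKO libraries (0.149 and 0.191 FPKM) than in the controls (0.117, 0 and 0.0901 FPKM), at levels too low to be tested. On chromosome 2 of GRCm38, Scn3a (65457118 to 65567591), Scn2a (65620764 to 65767447), Scn1a (66270781 to 66440837), Scn9a (66480080 to 66635114) and Scn7a (66673426 to 66784910) lie in that order. Their mean levels over the libraries, 11.8, 4.84, 2.06, 1.34 and 0.0220 FPKM, were lower in that order, with Scn2a read from Scn2a1. These paralogs have similar coding sequences, and how reads shared between them were counted is not given in the sources used here.

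Of the beta subunits, Scn3b, which is known for expression in embryonic brain, was 39.5 and 34.4 FPKM in the cKO libraries, against 46.9, 20.6 and 32.5 FPKM in the controls. Both cKO libraries lay inside the control range (log2 change 0.22, SE 0.34, adjusted p = 0.814). Scn2b, a beta subunit that is linked to the alpha subunit by a disulfide bond, was 2.03 and 1.25 FPKM in the cKO libraries, against 3.51, 2.01 and 2.07 FPKM in the controls. cKO 1 lay just above control 2 there, so the groups overlapped (log2 change -0.41, SE 0.27, adjusted p = 0.618). Scn4b was at most 0.0553 FPKM in any library.

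**Figure D3:**
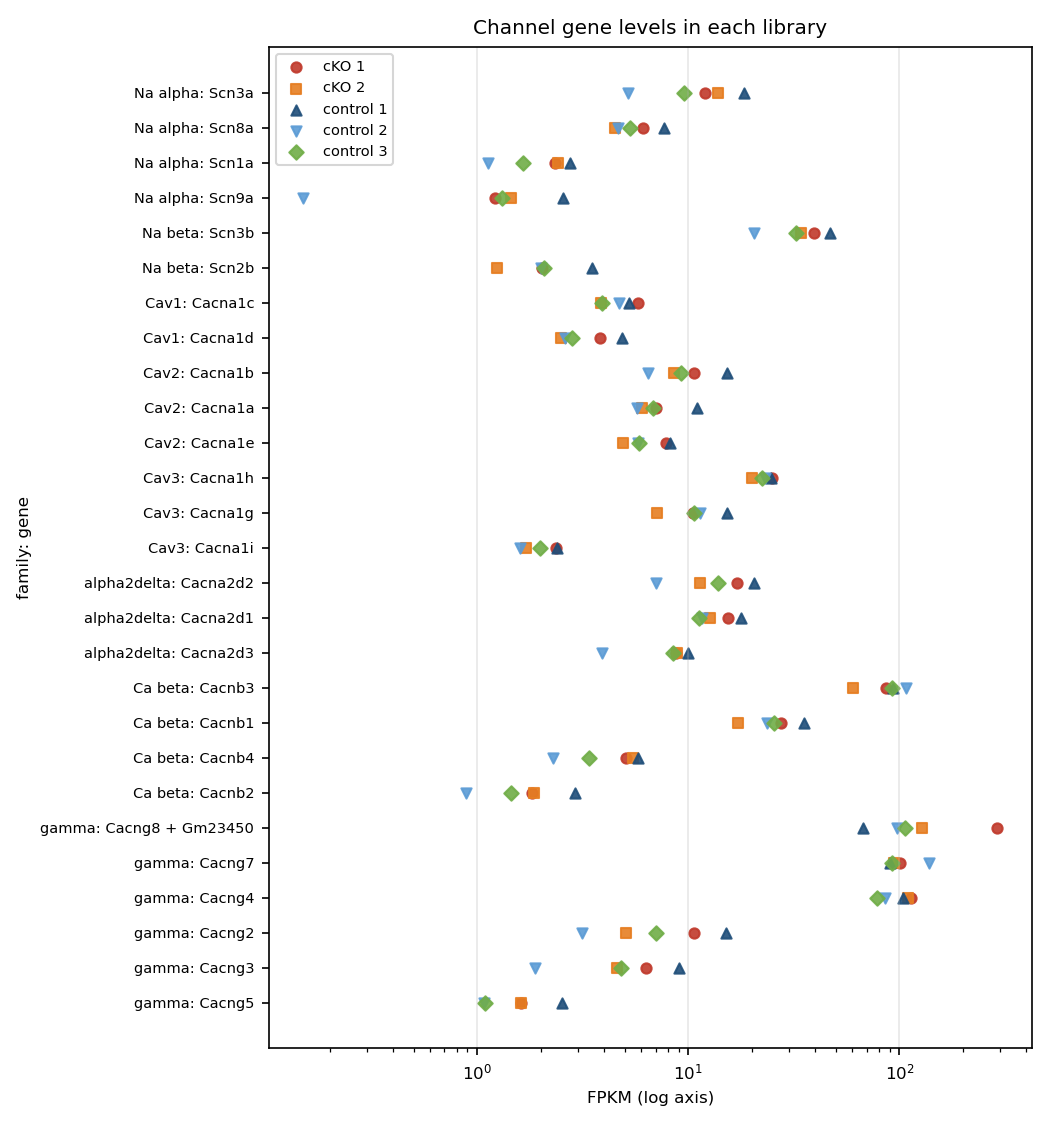
FPKM of 27 of the 29 tested channel genes on a log axis, by family, with 1 symbol per library (cKO first in the legend). Cacng4, Cacng7, the Cacng8 locus (joined with Gm23450) and Cacnb3 hold the highest levels (60.1 to 291 FPKM in every library). Control 2 is the lowest library in many of the sodium channel rows.

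The pores of L-type calcium channels, which couple activity to gene expression, were of low to moderate level. Cacna1c was 5.80 and 3.87 FPKM in the cKO libraries, against 5.24, 4.71 and 3.90 FPKM in the controls, and the cKO libraries were the highest and the lowest of all. Cacna1d was 3.83 and 2.50 FPKM in the cKO libraries, against 4.86, 2.60 and 2.81 FPKM in the controls, with overlap. Cacna1s, the pore of skeletal muscle, and Cacna1f, the pore of retinal synapses, were at most 0.102 and 0.0898 FPKM in any library.

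The presynaptic pores of the Cav2 family all had a negative log2 change, and none passed. Cacna1b, the N-type pore, was 10.7 and 8.56 FPKM in the cKO libraries, against 15.3, 6.47 and 9.28 FPKM in the controls. Cacna1a, the P/Q-type pore, was 7.05 and 6.02 FPKM in the cKO libraries, against 11.05, 5.70 and 6.80 FPKM in the controls. Both cKO libraries lay inside the control range for both genes (log2 changes -0.03 with SE 0.34 and -0.19 with SE 0.28). Cacna1e, the R-type pore, was 7.82 and 4.93 FPKM in the cKO libraries, against 8.23, 5.77 and 5.83 FPKM in the controls, so cKO 2 was the lowest library.

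Pores of the low-voltage-activated T type held 1 of the 2 tested members, with Cacnb3, whose cKO libraries both lay below every control. Cacna1g (chromosome 11, 94408391 to 94474400) was 10.6 and 7.13 FPKM in the cKO libraries, against 15.3, 11.3 and 10.7 FPKM in the controls. The cKO libraries lay below every control, with cKO 1 just under control 3, and averaged 8.85 ± 2.43 FPKM (SD, n = 2) against 12.5 ± 2.51 FPKM in the controls (SD, n = 3). The log2 change was -0.46 (SE 0.23, 95% interval -1.03 to 0.12, adjusted p = 0.575), and leaving out cKO replicate 2 gave -0.20, leaving out cKO replicate 1 gave -0.71 and leaving out control replicate 1 gave -0.31. In the authors' deposited table Cacna1g had a log2 fold change of -0.49 with a q-value of 0.128. Cacna1h, the most abundant T-type pore, was 24.8 and 20.1 FPKM in the cKO libraries, against 24.6, 23.2 and 22.4 FPKM in the controls, and its controls differed least of all tested members, with a highest to lowest ratio of 1.09. Cacna1i was 2.35 and 1.70 FPKM in the cKO libraries, against 2.399, 1.596 and 1.98 FPKM in the controls.

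Of the alpha2delta subunits, the targets of gabapentinoid drugs are Cacna2d1 and Cacna2d2. Cacna2d1 was 15.4 and 12.6 FPKM in the cKO libraries, against 17.9, 11.7 and 11.3 FPKM in the controls. Cacna2d2 was 16.9 and 11.3 FPKM in the cKO libraries, against 20.5, 7.03 and 13.8 FPKM in the controls. Both cKO libraries lay inside the control range for both genes. Cacna2d3, a further subunit of the family, was 8.74 and 8.89 FPKM in the cKO libraries, against 9.97, 3.92 and 8.43 FPKM in the controls, and control 2 alone stood apart. Cacna2d4, known from retinal photoreceptors, was at most 0.0623 FPKM in any library.

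Among the cytoplasmic beta subunits, Cacnb3 was the most abundant and lay lower in both cKO libraries. Cacnb3 (chromosome 15, 98628436 to 98644536) was 86.4 and 60.1 FPKM in the cKO libraries, against 93.2, 107.8 and 92.5 FPKM in the controls. The cKO libraries averaged 73.2 ± 18.6 FPKM (SD, n = 2) against 97.9 ± 8.64 FPKM in the controls (SD, n = 3), or 74.8% of the control mean. The log2 change was -0.43 (SE 0.20, 95% interval -0.93 to 0.06, adjusted p = 0.575), with an exact two-sided permutation p of 0.1, the smallest possible. Leaving out cKO replicate 2 gave -0.17, and leaving out cKO replicate 1 gave -0.69. The authors' deposited table gave Cacnb3 a log2 fold change of -0.42 with a q-value of 0.167.

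Cacnb1, the subunit also used in skeletal muscle, was 27.4 and 17.1 FPKM in the cKO libraries, against 35.2, 23.5 and 25.6 FPKM in the controls, with cKO 2 the lowest library (log2 change -0.34, SE 0.27). Cacnb4, the subunit mutated in lethargic mice, was 5.07 and 5.45 FPKM in the cKO libraries, against 5.77, 2.28 and 3.39 FPKM in the controls. Both cKO libraries exceeded controls 2 and 3 and lay under control 1 (log2 change 0.44, SE 0.32, adjusted p = 0.631). Cacnb2, a beta subunit of heart and brain, was 1.82 and 1.87 FPKM in the cKO libraries, against 2.91, 0.887 and 1.45 FPKM in the controls, in the same order of libraries as Cacnb4.

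Gamma subunits held the highest levels of the set. Cacng4, a TARP of the developing brain (chromosome 11, 107732357 to 107794706), was 114 and 109.8 FPKM in the cKO libraries, against 104, 85.4 and 78.5 FPKM in the controls. Both cKO libraries lay above every control, at a mean of 112 ± 2.88 FPKM (SD, n = 2) against 89.5 ± 13.5 FPKM (SD, n = 3). The log2 change was 0.33 (SE 0.17, 95% interval -0.09 to 0.75, adjusted p = 0.575). The groups overlapped under both pan-neuronal centrings. Genes of the ventral telencephalon and of GABAergic neurons were also higher: 17 such genes summed to 1316 and 1123 FPKM in the cKO libraries, against 661, 566 and 920 FPKM in the controls, and their part in the Cacng4 level was not tested.

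The Cacng8 locus was 291 and 128 FPKM in the cKO libraries, against 67.01, 97.8 and 106 FPKM in the controls. cKO 1 stood far above the other libraries, and cKO 2 lay above the highest control. The log2 change was 1.11 (SE 0.40, adjusted p = 0.575). Leaving out cKO replicate 1 gave 0.52, and leaving out cKO replicate 2 gave 1.70. In the authors' deposited table its log2 fold change was 1.21 with a q-value of 0.842. The value cannot be divided between Cacng8, a TARP of hippocampal and cortical neurons, and Gm23450. Across the 101 tested loci that join a gene with a miRNA gene, the median ratio of the highest to the lowest control was 1.47, against 1.35 for all tested loci. It was 1.58 for the Cacng8 locus, and a ratio over controls does not describe the gap between its cKO libraries.

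Cacng7, a TARP next to Cacng8, was 101 and 94.8 FPKM in the cKO libraries, against 90.7, 138 and 92.5 FPKM in the controls, and both cKO libraries lay inside the control range. Cacng2, or stargazin, the TARP mutated in stargazer mice, was 10.6 and 5.06 FPKM in the cKO libraries, against 15.1, 3.14 and 7.05 FPKM in the controls. Cacng3, a related TARP, was 6.34 and 4.58 FPKM in the cKO libraries, against 9.04, 1.88 and 4.83 FPKM in the controls. The order of the 5 libraries was the same for both, and the highest control was 4.81 times the lowest in each. Cacng5 was 1.62 and 1.61 FPKM in the cKO libraries, against 2.52, 1.08 and 1.09 FPKM in the controls. Cacng1, the gamma subunit of skeletal muscle, averaged 0.839 FPKM over the libraries and was not tested, and Cacng6 was listed at 0 except for 0.136 FPKM in control 3.

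Some genes that lie close together differed widely in level, while the neighbours Cacng7 and the Cacng8 locus were both high. Cacng1, Cacng4 and Cacng5 lie in that order on chromosome 11 between 107703218 and 107915055, and had means over the libraries of 0.839, 98.4 and 1.58 FPKM. Cacng7, Cacng8 and Cacng6 lie in that order on chromosome 7 between 3332027 and 3435667. The means there were 103 FPKM for Cacng7 and 138 FPKM for the Cacng8 locus, a value shared with Gm23450, and Cacng6 was near 0.

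The share of each subunit within its family was also compared. Scn3a made up 50.2% and 57.7% of the summed FPKM of the 9 sodium channel pores in the cKO libraries, against 56.1%, 43.5% and 48.8% in the controls. That sum leaves out Scn2a1, which was 6.21 and 4.33 FPKM in the cKO libraries, against 8.41, 1.70 and 3.56 FPKM in the controls. With Scn2a1 included, each of these shares would be lower. Scn3b made up 84.6% and 89.5% of the beta subunits in the cKO libraries, against 88.3%, 79.8% and 86.6% in the controls. The share of Cacna1g in the T-type pores was 27.998% and 24.7% in the cKO libraries, against 36.3%, 31.4% and 30.5% in the controls, so it was below every control. Cacnb3 took 71.6% and 71.1% of the beta subunits in the cKO libraries, against 67.98%, 80.2% and 75.2% in the controls, and these overlapped although its level did not. The share of Cacnb4 was 4.20% and 6.45% in the cKO libraries, against 4.20%, 1.69% and 2.76% in the controls. These shares do not depend on how a library is scaled, and no test was made on them.

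**Figure D4:**
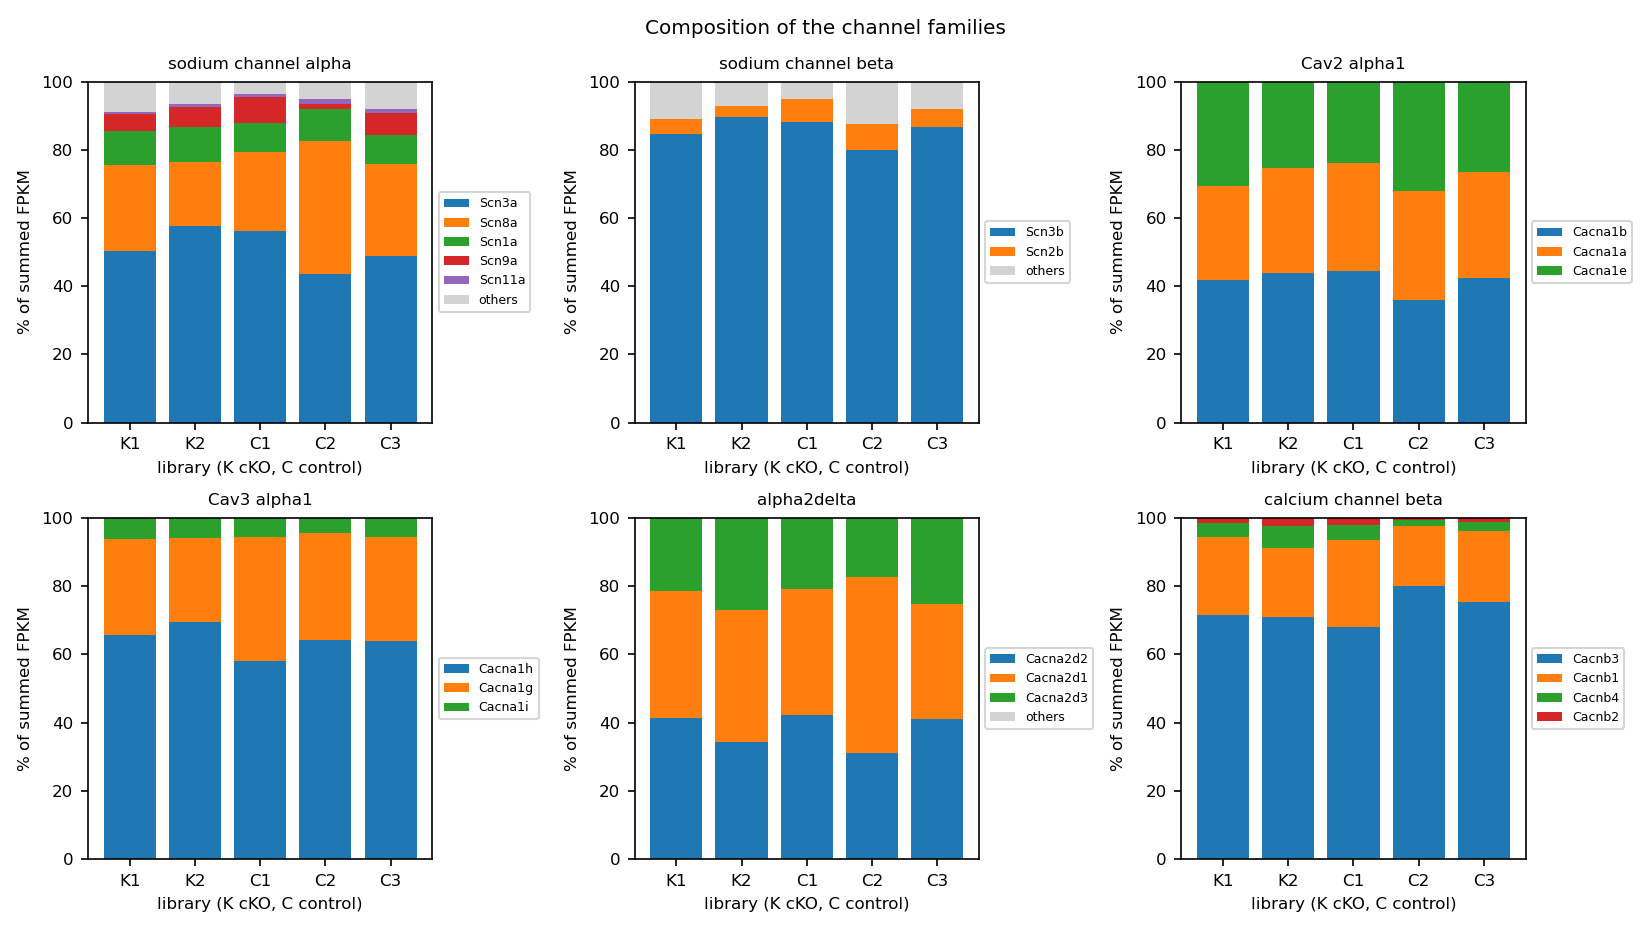
Share of each subunit in the summed FPKM of its family, in percent, for cKO libraries (K1, K2) and control libraries (C1 to C3). Scn3a, Scn3b, Cacna1h and Cacnb3 are the leading subunits of their families in every library, and control 2 has the lowest share of Scn3a (43.5%). The sodium channel alpha sum leaves out Scn2a1.

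Partners of the channels were read from lists written with earlier results of these data known. In limma 0 members of each list were called. Of 14 tested genes that anchor or modulate sodium channels, both cKO libraries lay above every control in 4 (13.4% of all loci) and below in 1 (15.6% of all loci), and the median log2 change was 0.10. The 4 with the smallest p were Fgf13, Fgf14, Nfasc and Fgf12. Fgf13, a fibroblast growth factor homologous factor that binds sodium channels, was 59.1 and 68.04 FPKM in the cKO libraries, against 51.3, 34.2 and 43.4 FPKM in the controls (log2 change 0.57, SE 0.20, adjusted p = 0.575). Fgf14, of the same family, was 7.02 and 10.2 FPKM in the cKO libraries, against 6.004, 2.15 and 4.83 FPKM in the controls. Nfasc, the neurofascin of axon initial segments, was 30.8 and 20.3 FPKM in the cKO libraries, against 34.2, 41.3 and 31.9 FPKM in the controls. Fgf12 was 4.06 and 3.64 FPKM in the cKO libraries, against 3.63, 1.07 and 1.97 FPKM in the controls, and its lower cKO library lay within 0.1 FPKM of control 1.

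Of 17 tested loci in the list of calcium channel regulators, 3 lay above (13.4% of all loci) and 1 below every control (15.6%), and the median log2 change was -0.01. Gem, a small GTPase that inhibits calcium channels, was 1.09 and 0.597 FPKM in the cKO libraries, against 1.20, 2.02 and 1.79 FPKM in the controls. Akap5, a scaffold of kinases at L-type channels, was 4.55 and 3.92 FPKM in the cKO libraries, against 3.81, 1.66 and 2.76 FPKM in the controls. Stac, an adaptor of L-type channels, was 2.65 and 2.09 FPKM in the cKO libraries, against 1.63, 1.38 and 2.05 FPKM in the controls. Pcbp2, an RNA-binding protein that the list also holds and that is among the 3 above, was 123 and 153 FPKM in the cKO libraries. Its controls were 122, 115 and 113 FPKM.

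Of 21 tested genes downstream of calcium entry, 5 lay above (13.4% of all loci) and 4 below every control (15.6%), and the median log2 change was 0.17. Nfatc4, a calcineurin-dependent transcription factor, was 3.76 and 1.88 FPKM in the cKO libraries, against 7.34, 23.6 and 11.1 FPKM in the controls (log2 change -1.87, SE 0.50, adjusted p = 0.575). Crtc2, a coactivator of CREB, was 9.91 and 9.79 FPKM in the cKO libraries, against 12.1, 15.1 and 13.7 FPKM in the controls. Creb1 was 16.96 and 20.3 FPKM in the cKO libraries, against 15.2, 13.1 and 13.2 FPKM in the controls. Ppp3cb, a catalytic subunit of calcineurin, was 63.5 and 76.1 FPKM in the cKO libraries, against 59.1, 37.7 and 47.8 FPKM in the controls. The groups did not overlap for any of these 4 genes, which were named for the smallest p of their list, a choice that favours separated groups.

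The sodium leak channel Nalcn was 4.21 and 4.92 FPKM in the cKO libraries, against 5.26, 0.913 and 2.99 FPKM in the controls. Fam155a, an auxiliary subunit of that channel, was 17.3 and 14.04 FPKM in the cKO libraries, against 26.5, 5.85 and 12.01 FPKM in the controls, and Unc79, another subunit, was 11.1 and 9.86 FPKM in the cKO libraries, against 12.2, 8.899 and 9.38 FPKM in the controls. All 3 tested members of this complex had control 1 highest and control 2 lowest, as many of the channel genes did. Among 11 genes of REST and its corepressors, which silence neuronal channel genes outside neurons, 1 lay above (13.4% of all loci) and 3 below every control (15.6%), with a median log2 change of -0.003. Rcor2, a corepressor of progenitors, was 85.1 and 76.2 FPKM in the cKO libraries, against 91.6, 206 and 146 FPKM in the controls. Ehmt2, a histone methyltransferase, was 94.9 and 43.5 FPKM in the cKO libraries, against 101, 130 and 107 FPKM in the controls. Ctdsp1, a phosphatase of the REST complex, was 8.23 and 5.06 FPKM in the cKO libraries, against 7.64, 15.2 and 9.46 FPKM in the controls, and Sin3a was 21.9 and 22.6 FPKM in the cKO libraries, against 23.2, 25.9 and 25.96 FPKM in the controls.

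Counts of members whose groups did not overlap depended on single libraries. Without control replicate 1, the Chd8 c/+ library, both cKO libraries lay above every remaining control for 10 members, among them Scn1a, Scn3a, Scn3b and Cacnb4, where 27.7% of all loci did, and below for 2 (28.6%). Without control replicate 2, 3 lay above (18.1%) and 3 below (19.7%), and without control replicate 3, 3 lay above (15%) and 2 below (19.4%). Without cKO replicate 1 the remaining cKO library lay below every control for 9 members (34.5% of all loci) and above for 2 (27.3%), and without cKO replicate 2 it lay above every control for 6 (21.5% of all loci) and below for 2 (22.0%). Cacng4 and the Cacng8 locus stayed above, and Cacna1g and Cacnb3 below, when each library was left out in turn. That outcome was fixed, because groups that do not overlap cannot come to overlap when a library is removed. In the tissue, 12 microglial genes summed to 111 and 105 FPKM in the cKO libraries, against 34.8, 52.2 and 41.97 FPKM in the controls, and 14 vascular genes to 96.4 and 106 FPKM, against 88.96, 92.2 and 80.9 FPKM. Markers of meninges summed to 8.99 and 6.07 FPKM in the cKO libraries, against 5.64, 28.2 and 6.64 FPKM in the controls. Markers of skeletal muscle summed to 6.58 and 4.79 FPKM in the cKO libraries, against 6.11, 5.61 and 6.22 FPKM in the controls, with Ckm at 0 in 4 libraries. The part of these cells in the channel values was not tested.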

How the data were processed

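RNA was measured in 2 Chd8 cKO and 3 control libraries, grouped by the sample titles. Not analysed here were 6 ATAC-seq samples. The authors' deposited table held FPKM per locus and library and their mean FPKM per group, and, for the comparison, a p-value, a q-value, a log2 fold change and a score (the test statistic); the header names no unit, and FPKM was taken from the Cufflinks locus names. Per the submitters' processing notes, the build was mm10 and the tools included TopHat and Cufflinks; versions, annotation, strand and pooling were not given in the sources used here. Counts are absent from the table, and values under 0.05 FPKM gave no common step, so depth is unknown. FPKM falls when other transcripts take more of a library.

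The 12672 loci that averaged 1 FPKM or more were taken as log2(FPKM + 1) and fitted with limma (version 3.58.1, under R 4.3.3), using an intensity trend, 3 residual and 2.49 prior degrees of freedom, and Benjamini-Hochberg adjustment over all of them. Intervals are 95% from that fit. The fit was also run on simulated data, and how many planted changes it called is not reported here. Alternatives were a pseudocount of 0.1, no filter, a mean of at least 5 FPKM, quantile or median scaling, no trend, each library left out, a replicate block and, added after seeing the data, 2 centrings on pan-neuronal genes. Of these, centring on their median level was tried first; centring on their median deviation was added once its values had been seen, because levels of genes of very different abundance set the first. Counts cover every member; 2 tested members, and sequences, are not reported here. Of each partner list, up to 4 genes with the smallest p are named. Scn2a1 and Ckm were named after their values were seen. Members and lists were chosen with earlier results of these data known. Coordinates and promoter windows are from RefSeq, GRCm38.p6, matched by symbol for 39 of 39 members (coordinates) and 29 (windows).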

Additional observations from a re-analysis of the deposited data

How the results depend on the processing

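Under every alternative run, 0 channel genes were called in limma, and the lowest adjusted p of a member was 0.324 (Scn1a, Cacng4 and Cacnb4, without control replicate 1); with 1 cKO library left, that library is assumed to vary like the controls. The depth is unknown, so what it limits cannot be given. The sign was kept under every alternative by 9 of the 29 members, among them Cacna1g, Cacnb1, Cacng4, Cacnb3, Cacnb4, Scn1a, the Cacng8 locus and Scn2b. The causes of the shifts below were not tested.

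With a replicate block, the log2 change was -0.050 for Cacng5, -0.050 for Cacna2d1 and -0.054 for Cacna1c, 0 members had an unadjusted p under 0.05 with a higher level, and the loci called in the whole table numbered 1 higher and 2 lower (2 and 4 without it). Whether the numbers pair the libraries is not known. Deviations of same-numbered libraries correlated at -0.07 and -0.11. The deviations of the 2 cKO libraries mirror each other by construction, so these values cannot decide it. The block left 1 residual degree of freedom and changed no call of a member, where 0 were called without it. Cacng7 was 0.011 after quantile scaling, and Cacna1b was 0.0023 after median centring. A minimum of 5 FPKM left 18 members and 1 locus called higher. Loci called lower numbered 1 without a filter and 2 without an intensity trend. Centred on the median level of the pan-neuronal genes, the form tried first, 1 member lay above every control and 0 below, 0 had an unadjusted p under 0.05 with a higher level, and 45 loci were called higher and 46 lower; the median of all loci was 0.11, and log2 changes were 0.079 for Cacna1e, 0.069 for Cacna1d, 0.024 for Scn8a, 0.075 for Cacna1h, 0.11 for Cacna1b and 0.033 for Cacng7. Centred on the median deviation of those genes, a form added after the first had been seen, 4 members lay below every control (Cacna1g, Cacnb1, Cacnb3 and Scn2b; 5.56% of loci) and 4 loci were called higher.

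Over the fits without 1 library, members above every control numbered 2 to 10 and below 2 to 9, members at an unadjusted p under 0.05 numbered 0 to 3 higher and 0 to 1 lower, and loci called numbered 2 to 30 higher and 2 to 10 lower. Log2 changes that changed sign ranged from -0.046 to 0.78 (Scn3a), -0.30 to 0.074 (Scn8a), -0.29 to 0.52 (Scn9a), -0.082 to 0.49 (Scn3b), -0.20 to 0.28 (Cacna1c), -0.30 to 0.16 (Cacna1d), -0.30 to 0.27 (Cacna1b), -0.37 to 0.057 (Cacna1a), -0.34 to 0.23 (Cacna1e), -0.21 to 0.083 (Cacna1h), -0.14 to 0.17 (Cacna1i), -0.071 to 0.26 (Cacna2d1), -0.26 to 0.45 (Cacna2d2), -0.051 to 0.53 (Cacna2d3), -0.12 to 0.40 (Cacnb2), -0.44 to 0.54 (Cacng2), -0.26 to 0.64 (Cacng3), -0.052 to 0.33 (Cacng5), -0.21 to 0.091 (Cacng7), -0.080 to 0.82 (Scn2a1), -0.19 to 0.81 (Fam155a) and -0.026 to 0.18 (Unc79).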
